A study of Mus musculus with 6 samples.

Results

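The genes of antigen presentation described here are the mouse genes of the major histocompatibility complex (MHC) and the machinery that supplies it with peptides. They were taken by name from the deposited count table: the 45 genes whose symbol starts with H2-, the mouse name of the MHC, and 17 others that transport, trim or load peptides, control these genes or serve as ligands of T and natural killer (NK) cells. That made 62 of the 54418 genes in the table, picked out by symbol. RNA came from mouse AKP organoids, which are epithelial cultures, in a study of colorectal cancer metastasis. The labels do not spell out the name AKP. GATA6KO organoids (3 libraries) were set against Control organoids (3 libraries), and both are labelled AKP, so that whatever this background carries is shared. The labels give no mouse strain, no agent or age, and do not say whether a group is 1 clone or whether its replicates were separate cultures. The p-values therefore rest on library-to-library spread alone, which could be technical.

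MHC class I molecules are heavy chains that pair with the light chain beta-2-microglobulin and show peptides from inside the cell to CD8 T cells. The peptides are cut by the proteasome, carried into the endoplasmic reticulum by the TAP transporter, trimmed by the peptidase ERAP1 and loaded with the help of tapasin. The immunoproteasome is a form of the proteasome whose catalytic subunits are induced by interferon. Class II molecules show peptides from outside the cell to CD4 T cells, are made mainly by professional antigen-presenting cells, and can appear on gut epithelium under interferon gamma. Class I loss is one known way in which colorectal tumours escape T cells.

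Total estimated counts ran from 29208525 to 29674562 in GATA6KO libraries and from 22973245 to 31328415 in Control libraries. Gata6 itself measured 14.3, 16.03 and 8.24 CPM (counts per 1000000 counts, TMM-scaled between libraries) in GATA6KO, against 25.3, 23.2 and 28.01 CPM in Control, a ratio of means of 0.504 (log2 fold change -0.99, SE 0.25, edgeR adjusted p = 0.0486). The position of the genetic lesion is not given in the sources used here, so that a transcript level does not show whether protein was lost. Of the 14714 genes that passed the filter on low counts, 12.4% were called, meaning that the edgeR quasi-likelihood test gave an adjusted p under 0.05. Higher calls in GATA6KO made up 6.92% and lower calls 5.47%, and 40.8% of genes had groups whose values did not overlap. GATA6KO libraries spread more widely than Control libraries, with a median SD of log2 CPM of 0.279 in GATA6KO and 0.0950 in Control. The median log2 ratio to Control over chromosome 14 was -0.83 in GATA6KO replicate 2, and -0.08 and 0.05 in GATA6KO replicates 1 and 3. On chromosome 17, which holds the mouse MHC, these medians lay between -0.05 and -0.01. Mitochondrial transcripts took 2.07% to 2.84% of counts in GATA6KO and 1.85% to 1.88% in Control.

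The epithelial label was borne out by markers, with all 7 epithelial markers detected and their sum at 4162 to 4902 CPM in GATA6KO and 6394 to 6734 CPM in Control. The 15 leukocyte markers summed to 3.57 to 6.15 CPM in GATA6KO and 11.6 to 14.8 CPM in Control. Nearly all of that sum was Cd68, while no other leukocyte marker passed 11 counts in a library and Tyrobp was at 0. The 8 fibroblast markers summed to 0.426 to 0.700 CPM in GATA6KO and 0.467 to 0.659 CPM in Control. The 6 endothelial markers summed to 3.54 to 5.62 CPM in GATA6KO and 2.63 to 2.74 CPM in Control, mostly from Vwf.

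Of the 62 antigen presentation genes, 29 passed the filter and were tested. Among them 7 were lower in GATA6KO and 1 was higher, which is 27.6% called against 12.4% of all genes tested, and 24.1% called lower against 5.47%. The median log2 fold change of the 29 was -0.19, against 0.02 over all genes tested. The set was chosen with earlier results of these data known, so that these shares describe it only. Groups did not overlap for 15 of the 29 (51.7%, against 40.8% of all genes). In 12 of these GATA6KO lay below Control and in 3 above, where the shares over all genes tested were 20.5% below and 20.3% above. The 33 genes that were not tested included 11 at 0 counts in all 6 libraries, and none of the other 22 passed 61 counts in a library. The lower calls fell on class I heavy chain genes, where 6 of 15 tested were lower and 0 higher with a median of -0.84. The other lower call was H2-Ke6, which carries an MHC name through its position only. The higher call was Tapbp, the gene of tapasin. In bulk RNA, fewer cells that make a transcript and less transcript per cell cannot be told apart.

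**Figure D1:**
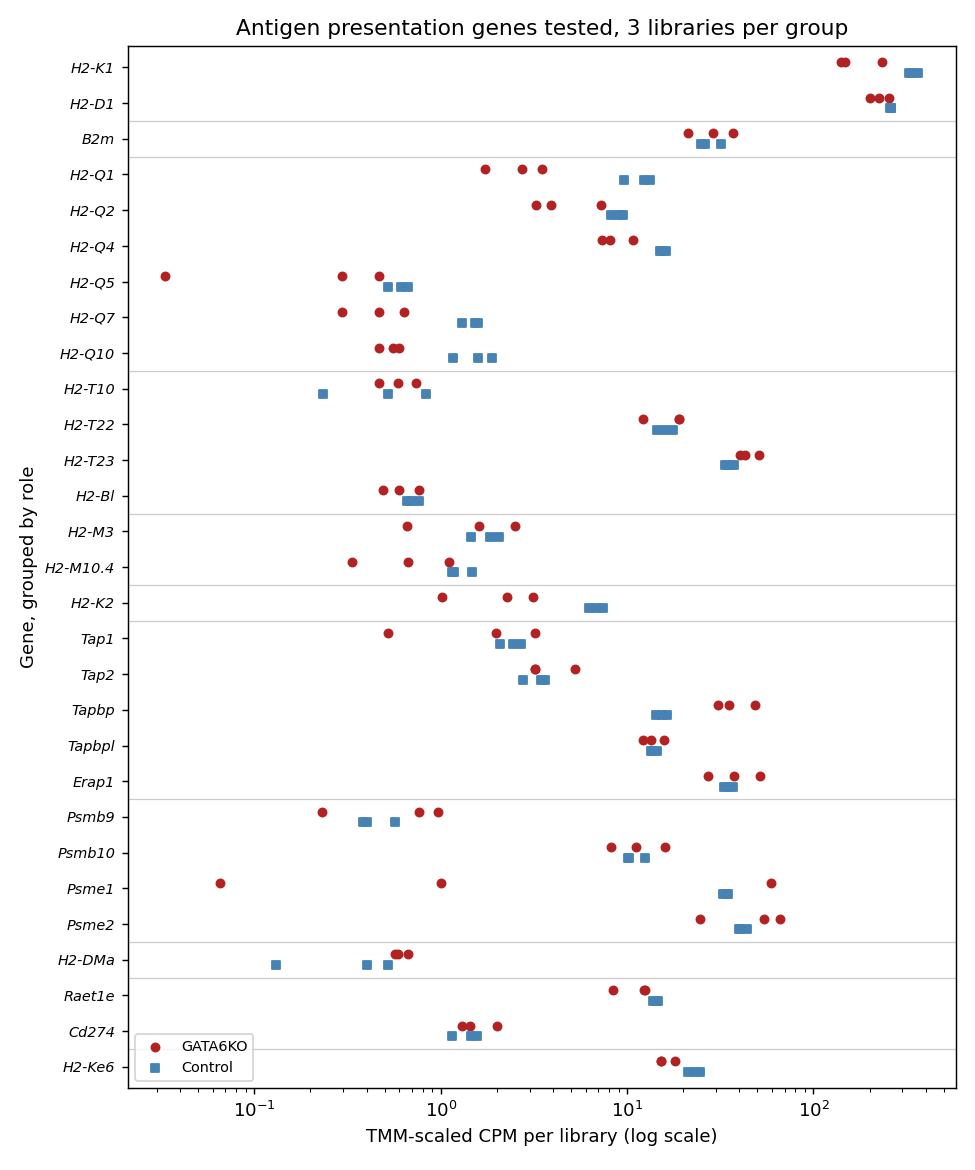
TMM-scaled CPM on a log axis for the 29 antigen presentation genes tested, grouped by role, with 3 GATA6KO libraries (circles) above 3 Control libraries (squares) for each gene. H2-K1 and the Q region genes lie to the left in GATA6KO, Tapbp lies to the right, and the GATA6KO libraries of Psme1 are spread from 0.0656 to 59.2 CPM.

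The mouse has a pair of classical class I heavy chain genes in this annotation, H2-K1 and H2-D1, and only H2-K1 was called. H2-K1 (chromosome 17, 33996017 to 34000347, minus strand, mm10) measured 232.7, 139.8 and 148 CPM in GATA6KO, against 324.7, 338.1 and 363.1 CPM in Control. All 3 GATA6KO libraries lay below all 3 Control libraries, with replicate 1 the nearest. The means were 173.5 ± 51.5 CPM in GATA6KO and 342 ± 19.5 CPM in Control (SD, n = 3 each), a log2 fold change of -0.98 (SE 0.20, edgeR adjusted p = 0.0273). The edgeR adjusted p was 0.0641 without GATA6KO replicate 3 and 0.0919, 0.0928 and 0.113 without Control replicates 1, 2 and 3. The call was lost in each of these fits. Calls over all genes fell from 1823 to 425, 389 and 332 without Control replicates 1, 2 and 3, and stood at 1834 without GATA6KO replicate 3. The log2 fold change of H2-K1 stayed between -1.25 and -0.85 in all 14 alternative fits.

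H2-D1 (chromosome 17, 35262730 to 35267499, plus strand) measured 254.5, 224.8 and 199.8 CPM in GATA6KO, against 256.3, 259.4 and 260.3 CPM in Control. GATA6KO replicate 1 came within 2 CPM of the lowest Control library, although the groups did not overlap. The difference was -0.19 on the log2 scale (SE 0.11, 95% interval -0.45 to 0.06, edgeR adjusted p = 0.264), and it passed the threshold only when GATA6KO replicate 1 was left out (adjusted p = 0.0491). Within each library, the estimated counts of H2-K1 stood to those of H2-D1 in a ratio of 0.915, 0.622 and 0.741 in GATA6KO, against 1.27, 1.303 and 1.40 in Control. This ratio does not depend on the scaling between libraries, and its log2 difference was -0.82 (2-sided exact permutation p = 0.1, the smallest that 3 against 3 libraries can give). Per kilobase of exon, where levels of different genes can be compared, H2-K1 stood at 59.1 ± 17.5 and H2-D1 at 87.8 ± 10.62 CPM per kb in GATA6KO. In Control the order was the other way, with H2-K1 at 116 ± 6.63 and H2-D1 at 100.3 ± 0.815 CPM per kb (SD, n = 3 each).

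Class I genes are similar enough in sequence that the counter must divide some reads among them. Of the 31-base words in the annotated transcripts of H2-K1, 77.2% occur in no other gene, and of those of H2-D1 73.1%. H2-D1 shares 13.8% of its words with H2-K1, and H2-K1 shares 11.1% of its words with H2-D1. Part of the counts of each gene thus depends on that division. These words come from the alleles of the annotated reference genome. Class I alleles differ between mouse strains, the labels give none for these organoids, and the effect of that on the levels of H2-K1 and H2-D1 was not tested.

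**Figure D2:**
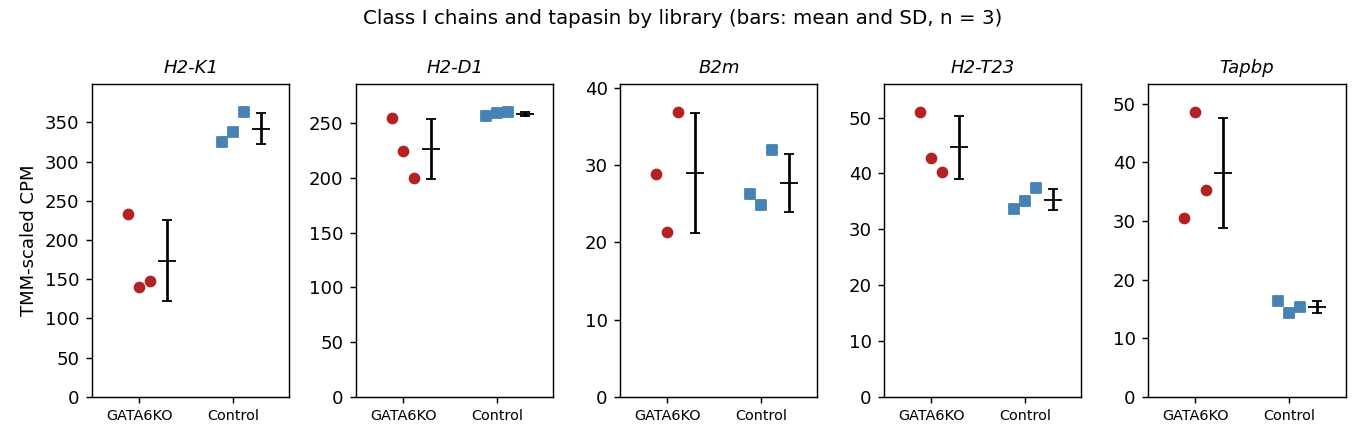
TMM-scaled CPM (axis from 0) in GATA6KO (left, circles) and Control (right, squares) libraries for H2-K1, H2-D1, B2m, H2-T23 and Tapbp, with mean and SD over 3 libraries beside the points. H2-K1 is lower and Tapbp higher in all 3 GATA6KO libraries, while the B2m groups overlap.

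The proximal promoters of H2-K1, H2-D1 and 3 Q region genes that were called are shown because they share regulatory letters, while H2-D1 was not called and the others were lower. The sequences are from RefSeq (GRCm38.p6), 250 bases before to 50 bases after the annotated start, read 5′ to 3′ on the gene's strand. Capitals mark 3 motifs, the longer ones as they stand in the H2-K1 promoter: GGGGATTCCCC (the NF-kB site of class I promoters), AGTTTCACTTCT (the interferon element of class I promoters) and CCAAT, which reads ATTGG where the match is on the other strand.
H2-K1 promoter, chr17:34000298-34000597, minus strand: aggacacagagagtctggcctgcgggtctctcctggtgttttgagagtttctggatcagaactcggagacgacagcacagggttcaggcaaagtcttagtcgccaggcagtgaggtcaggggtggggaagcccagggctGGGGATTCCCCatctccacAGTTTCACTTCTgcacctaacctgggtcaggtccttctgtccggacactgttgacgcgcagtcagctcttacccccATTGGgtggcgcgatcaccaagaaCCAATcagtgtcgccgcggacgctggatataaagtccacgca
H2-D1 promoter, chr17:35262844-35263143, plus strand: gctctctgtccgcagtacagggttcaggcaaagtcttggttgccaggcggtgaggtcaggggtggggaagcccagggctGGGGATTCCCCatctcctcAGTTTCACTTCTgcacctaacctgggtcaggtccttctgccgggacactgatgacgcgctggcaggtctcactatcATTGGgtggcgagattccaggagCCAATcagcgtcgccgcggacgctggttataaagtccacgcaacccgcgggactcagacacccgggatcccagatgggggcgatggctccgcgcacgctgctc
H2-Q4 promoter, chr17:35379367-35379666, plus strand: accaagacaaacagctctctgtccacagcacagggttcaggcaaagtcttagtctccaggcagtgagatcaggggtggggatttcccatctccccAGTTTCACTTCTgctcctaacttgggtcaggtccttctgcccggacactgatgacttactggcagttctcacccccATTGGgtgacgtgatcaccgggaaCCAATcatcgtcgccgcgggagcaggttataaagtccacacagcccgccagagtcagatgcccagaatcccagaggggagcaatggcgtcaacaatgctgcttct
H2-Q7 promoter, chr17:35438905-35439204, plus strand: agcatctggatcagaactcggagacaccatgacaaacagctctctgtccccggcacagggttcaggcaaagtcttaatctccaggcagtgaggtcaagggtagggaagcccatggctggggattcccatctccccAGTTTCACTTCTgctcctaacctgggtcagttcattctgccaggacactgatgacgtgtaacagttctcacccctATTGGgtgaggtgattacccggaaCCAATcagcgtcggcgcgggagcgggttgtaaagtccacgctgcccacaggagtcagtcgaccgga
H2-Q10 promoter, chr17:35469839-35470138, plus strand: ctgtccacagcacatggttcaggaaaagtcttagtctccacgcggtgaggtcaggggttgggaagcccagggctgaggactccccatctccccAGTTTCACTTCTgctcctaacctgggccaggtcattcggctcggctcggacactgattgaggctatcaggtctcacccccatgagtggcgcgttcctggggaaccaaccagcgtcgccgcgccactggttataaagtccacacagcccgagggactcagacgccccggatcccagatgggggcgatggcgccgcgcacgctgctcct
Both strands were searched, no motif's letters contain those of another, and the motifs were chosen after these sequences had been seen. H2-K1 and H2-D1 each held 1 GGGGATTCCCC and 1 AGTTTCACTTCT. These were at -111 and -92 from the annotated start in H2-K1 and at -171 and -152 in H2-D1. The CCAAT matches were shifted the same way, at -16 and 8 in H2-K1 and at -76 and -53 in H2-D1. Positions, here and below, thus depend on the annotated start and do not compare promoter distances between genes. Among 32851 RefSeq promoter windows of this length, 0.0304% held GGGGATTCCCC and 0.0335% held AGTTTCACTTCT, while CCAAT was in 37.4%. The promoters of H2-Q4, H2-Q7 and H2-Q10 held AGTTTCACTTCT at -155, -115 and -157. Only exact letters were marked. Close variants of GGGGATTCCCC, such as ggggatttccc in H2-Q4 and ggggattccc in H2-Q7, were left in lower case. Windows were found for 43 of the 62 antigen presentation genes. AGATAA and TGATAA, forms of the site that GATA factors bind, were in none of these 5 windows. Each form was in 5 of the 43 windows (11.6%), against 11.2% of all windows for AGATAA and 9.05% for TGATAA. The windows with AGATAA were those of H2-Q2, at -103, of Cd274, and of H2-Eb1, H2-M11 and H2-Oa. Those with TGATAA belonged to Tapbp, H2-M1, H2-M9, H2-M10.6 and H2-Ob. H2-Q1 was not among the 43 genes with a window. A match describes letters and not a site in use, and the lack of a match says only that these letters are not in this window.

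The non-classical class I genes of the Q region lay below Control as a group. Of 8 such genes, 6 were tested, and the median log2 fold change was -1.33. Among the 6, 4 were called lower and 0 higher (66.7% lower, against 5.47% of all genes tested). All 6 had GATA6KO values below every Control value, as had 20.5% of all genes tested. From 42.2% (H2-Q5) to 75.9% (H2-Q1) of their 31-base words are in no other gene, so that they are not 6 separate measurements. H2-Q1 showed the lowest GATA6KO level relative to Control, with 2.74, 3.51 and 1.73 CPM in GATA6KO against 13.2, 9.64 and 12.3 CPM in Control. The difference was -2.14 on the log2 scale (SE 0.30, edgeR adjusted p = 0.00790), and the call was lost only without Control replicate 3 (adjusted p = 0.0532). H2-Q4 measured 10.7, 7.38 and 8.14 CPM in GATA6KO, against 15.3, 14.97 and 16.2 CPM in Control (log2 fold change -0.83, edgeR adjusted p = 0.0288). H2-Q4 transcripts hold 47% words of their own, so that its level leans more on the division of shared reads.

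H2-Q7, one of the genes of the Qa-2 antigen, had 14, 9 and 19 counts in GATA6KO and 36, 44 and 39 counts in Control (log2 fold change -1.65, edgeR adjusted p = 0.0301). H2-Q10, a secreted class I chain best known from liver, had 14, 17 and 18 counts in GATA6KO and 43, 46 and 35 counts in Control (log2 fold change -1.50, edgeR adjusted p = 0.0275). Both are scarce, but no GATA6KO library reached the lowest Control library. H2-Q2 had 7.29, 3.25 and 3.90 CPM in GATA6KO and 8.24, 9.08 and 9.50 CPM in Control and was not called (log2 fold change -0.89, edgeR adjusted p = 0.114), although DESeq2 and the fit without GATA6KO replicate 1 called it (adjusted p = 0.0440 and 0.00735). H2-Q5 had 14, 9 and 1 counts in GATA6KO and 14, 15 and 20 counts in Control and was not called. Summed over the 8 genes, the Q region gave 17.6 ± 4.02 CPM in GATA6KO and 39.97 ± 2.23 CPM in Control (SD, n = 3 each). H2-Q4, H2-Q7 and H2-Q10 were not called when any 1 Control library was left out (adjusted p from 0.0877 to 0.134), nor was H2-Q4 without GATA6KO replicate 3 (0.0596).

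H2-K2, a transcribed class I pseudogene 21.4 kb from H2-K1, measured 3.14, 1.02 and 2.27 CPM in GATA6KO against 6.79, 6.27 and 7.47 CPM in Control (log2 fold change -1.67, SE 0.40, edgeR adjusted p = 0.0419). Replicate 2 was the lowest GATA6KO library, and all 3 were below Control. Without GATA6KO replicate 3 or any 1 Control library it was not called (adjusted p from 0.0835 to 0.160). Around it, the tested genes within 150 kb of H2-K1 that lie outside the antigen presentation set had log2 fold changes from -0.70 to 0.70. None of them was called, against 12.4% of all genes tested. Within this window H2-Ke6, 30 kb from H2-K1 and in the set by name only, was called lower (log2 fold change -0.51, edgeR adjusted p = 0.0494).

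**Figure D3:**
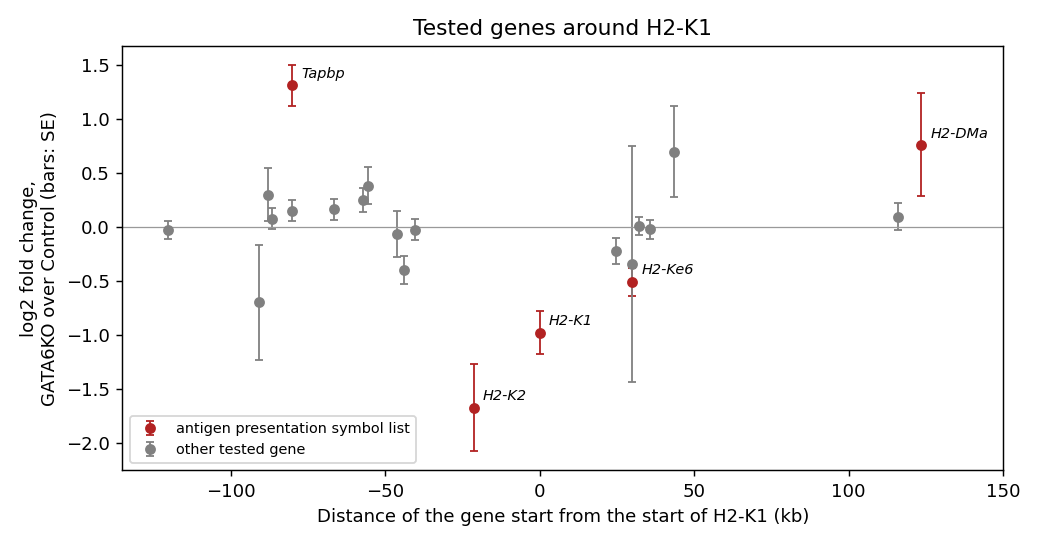
Log2 fold change of GATA6KO over Control with its SE (bars) for tested genes within 150 kb of H2-K1, by distance of the gene start in kb. Tapbp lies above its neighbours at 1.31, and H2-K2 and H2-K1 lie below theirs at -1.67 and -0.98.

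No class I gene of the T and M regions was called. Of 7 T region genes 4 were tested and 0 called, and of 14 M region genes 2 were tested and 0 called. Over all genes tested 12.4% were called, so that 0 calls among so few genes do not set these regions apart. H2-T23 encodes Qa-1, which shows leader peptides of other class I chains to the NKG2A receptor of NK cells. It measured 51.0, 42.7 and 40.3 CPM in GATA6KO against 33.6, 35.0 and 37.4 CPM in Control. All 3 GATA6KO values lay above Control, but the difference was not called (log2 fold change 0.34, SE 0.12, 95% interval 0.06 to 0.62, edgeR adjusted p = 0.107). The ratio of H2-T23 to H2-D1 counts was 0.200, 0.190 and 0.202 in GATA6KO and 0.131, 0.135 and 0.144 in Control (2-sided exact permutation p = 0.1, the smallest possible).

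H2-T22, whose product is a ligand of some gamma-delta T cell receptors, had overlapping groups at 16.7 ± 3.91 CPM in GATA6KO and 16.01 ± 1.59 CPM in Control (SD, n = 3 each). H2-T10 and H2-Bl had 7 to 23 counts in every library and overlapping groups. Only 32.6% of the 31-base words of H2-T22 and 35.8% of those of H2-T10 are in no other gene. The levels of H2-T22 and H2-T10 thus lean on the division of shared reads. H2-M3, which presents formylated bacterial peptides, had 48, 20 and 75 counts in GATA6KO and 33, 59 and 55 counts in Control. H2-M10.4, of a family known from the vomeronasal organ, had 10, 34 and 20 counts in GATA6KO and 27, 33 and 44 counts in Control (log2 fold change -0.84, edgeR adjusted p = 0.249). Neither M region gene was called. The 3 untested T region genes reached 14 counts at most and the 12 untested M region genes 3 counts, and 5 of the 14 M region genes were at 0 throughout.

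Summed over all 32 class I heavy chain genes, the libraries gave 586.5, 439.1 and 429.3 CPM in GATA6KO against 682.9, 695.7 and 732 CPM in Control. Every GATA6KO library lay below every Control library, and the group means differed by -31.1%. H2-K1 made most of this difference, since the 30 genes other than H2-K1 and H2-D1 summed to 85.1 ± 12.8 CPM in GATA6KO and 103 ± 5.30 CPM in Control (SD, n = 3 each). The leukocyte marker sum given above was also lower in GATA6KO, nearly all of it from Cd68 (means 3.43 CPM in GATA6KO and 11.9 CPM in Control). Ptprc, a marker of all leukocytes, stood at 0.209 CPM in GATA6KO and 0.197 CPM in Control. Any part of leukocytes in the class I levels was not tested.

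**Figure D4:**
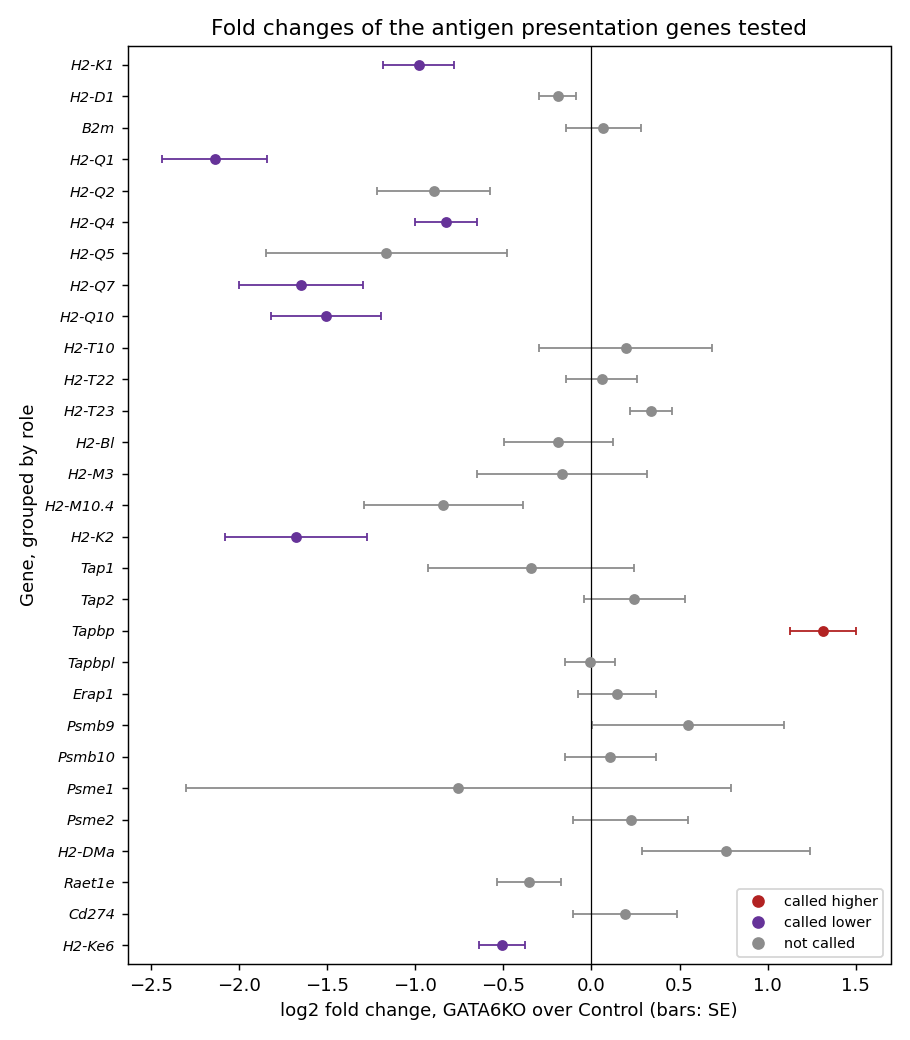
Log2 fold change of GATA6KO over Control with its SE for the 29 antigen presentation genes tested, grouped by role; colours mark genes called higher, called lower or not called. Lower calls fall on H2-K1, H2-K2, 4 Q region genes and H2-Ke6, and the higher call is Tapbp.

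Neither the light chain nor any of the 9 tested loading and proteasome genes of the set was called lower. Over all genes tested 5.47% were called lower, so that this does not set so few genes apart. B2m, which encodes beta-2-microglobulin, measured 28.8, 21.3 and 36.8 CPM in GATA6KO against 26.2, 24.8 and 31.9 CPM in Control. The groups overlapped (log2 fold change 0.07, SE 0.21, 95% interval -0.44 to 0.57, edgeR adjusted p = 0.855). The ratio of H2-K1 to B2m counts was 8.07, 6.55 and 4.02 in GATA6KO and 12.4, 13.6 and 11.4 in Control (2-sided exact permutation p = 0.1, the smallest possible), and for H2-D1 to B2m the groups overlapped (p = 0.7).

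Tapbp, which encodes the tapasin that bridges TAP and class I chains, rose in GATA6KO. It measured 30.6, 48.6 and 35.3 CPM in GATA6KO against 16.4, 14.3 and 15.3 CPM in Control. The lowest GATA6KO library lay well above the highest Control library, with a log2 fold change of 1.31 (SE 0.19, edgeR adjusted p = 0.00878). It was not called without Control replicate 2 or 3 (adjusted p = 0.0612 and 0.0672). Tapbp lies at 33915899 to 33929292 on the plus strand of chromosome 17 and shares 3422 bases of gene span with Zbtb22 on the same strand. Zbtb22 had 1024, 1068 and 952 counts in GATA6KO and 670, 859 and 954 counts in Control and was not called. Of the 31-base words of Tapbp, 73.1% are in no other gene. Its RefSeq promoter window (chr17:33919228-33919527) lies inside the gene span given above and overlaps the end of Zbtb22 at 33919325. The RefSeq start is thus not the start of that span. The window held 1 TGATAA, at -36 from the RefSeq start, a form found in 9.05% of all windows.

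The other loading genes were not called. Tap1, a subunit of the TAP transporter, had 59, 16 and 96 counts in GATA6KO and 56, 60 and 81 counts in Control. Tap2, the other subunit, had 96, 98 and 158 counts in GATA6KO and 79, 80 and 109 counts in Control. For Tap1 the 95% interval of the log2 fold change ran from -1.73 to 1.04, so that sizeable changes either way remain within the error. Tapbpl, a tapasin-related peptide editor, stood at 13.8 ± 1.82 CPM in GATA6KO and 13.9 ± 0.504 CPM in Control, and Erap1 at 38.7 ± 12.2 CPM in GATA6KO and 35.0 ± 1.95 CPM in Control (SD, n = 3 each).

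Of the 3 catalytic subunits of the immunoproteasome, only Psmb10 was at more than a trace. It had 332, 251 and 478 counts in GATA6KO and 284, 295 and 302 counts in Control. Psmb9 had 23, 7 and 29 counts in GATA6KO and 13, 11 and 12 counts in Control. Psmb8 was not tested, with 2, 2 and 7 counts in GATA6KO and 2, 0 and 1 counts in Control. Neither Psmb9 nor Psmb10 was called. The catalytic subunits of the immunoproteasome summed to 12.5 ± 4.34 CPM in GATA6KO and 11.4 ± 1.47 CPM in Control, and their constitutive counterparts to 409 ± 27.0 CPM in GATA6KO and 392 ± 16.4 CPM in Control (SD, n = 3 each).

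Psme1 and Psme2 encode the alpha and beta subunits of PA28, a ring that opens the proteasome. Psme1 (chromosome 14, 55578123 to 55581529, plus strand) had 30, 2 and 1776 counts in GATA6KO against 788, 941 and 1041 counts in Control. GATA6KO replicates 1 and 2 were nearly without the transcript, while replicate 3 lay above every Control library. The test over 3 against 3 libraries made no call (log2 fold change -0.76, SE 1.55, edgeR adjusted p = 0.771), and without GATA6KO replicate 3 the gene was called lower (adjusted p = 0.0102). Psme2, 9.3 kb away, had 1622, 753 and 1974 counts in GATA6KO and 907, 1166 and 1316 counts in Control. It was not called (log2 fold change 0.22, edgeR adjusted p = 0.678), and without GATA6KO replicate 2 it was called higher (adjusted p = 0.0316).

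The ratio of Psme1 to Psme2 counts was 0.0185, 0.00266 and 0.900 in GATA6KO and 0.869, 0.807 and 0.791 in Control. The low chromosome 14 median of GATA6KO replicate 2 applies to both genes in that library. Psme1 lay at a log2 ratio to Control of -4.99, -7.97 and 0.80 in GATA6KO replicates 1, 2 and 3. Among the 17 other tested genes within 150 kb, GATA6KO replicate 1 lay between -0.51 and 0.65, and GATA6KO replicate 2 between -2.98 (Pck2) and -0.15. Its neighbours Dcaf11, at -18.1 kb, and Emc9, at 3.4 kb, had log2 ratios of -0.16 and 0.36 in GATA6KO replicate 1. The near loss of Psme1 in that library was thus not shared by any tested neighbour in this window. Its cause was not tested.

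**Figure D5:**
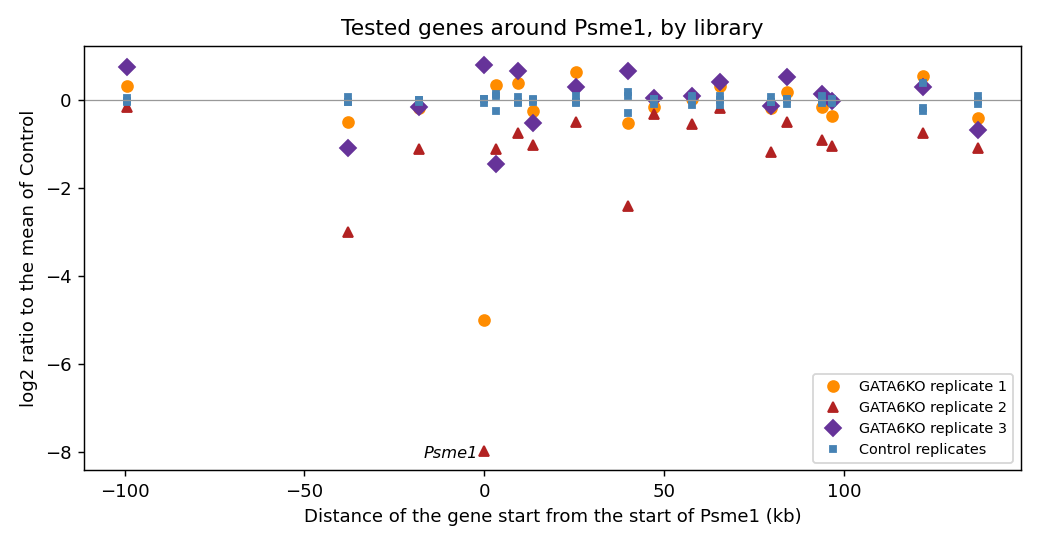
Log2 ratio of each library to the mean of Control for tested genes within 150 kb of Psme1, by distance of the gene start in kb, with GATA6KO replicates as circles, triangles and diamonds and Control replicates as small squares. Psme1 lies at -4.99 and -7.97 in GATA6KO replicates 1 and 2 and at 0.80 in replicate 3.

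The GATA6KO libraries also differed from each other in the genes of the light chain, loading and proteasome. Of these 10 tested genes, GATA6KO replicate 2 was the lowest GATA6KO library in 7 and GATA6KO replicate 3 the highest in 8. Psme1 and Psme2 are among these 7 and lie on chromosome 14, whose median was low in replicate 2. The order over all genes tested was not counted. Among all 29 tested genes, replicate 2 was the lowest in 16 and replicate 3 the highest in 13. This order within GATA6KO is a description of these libraries, and replicates of a group have no order of their own.

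Class II presentation was at the edge of detection in both groups. The 7 class II chain genes and pseudogenes summed to 0, 3 and 1 counts in GATA6KO and 4, 1 and 4 counts in Control, where a count of 0 allows up to 3 counts. Cd74, the invariant chain that escorts class II molecules, had 4, 6 and 7 counts in GATA6KO and 6, 6 and 8 counts in Control. Ciita, the master activator of class II genes, had 0, 4 and 1 counts in GATA6KO and 4, 4 and 1 counts in Control. No difference in these genes was detectable at this depth. H2-DMa, which takes part in class II peptide exchange, had 17, 18 and 20 counts in GATA6KO and 3, 15 and 12 counts in Control and was not called (log2 fold change 0.76, edgeR adjusted p = 0.313). It overlaps Brd2 on the opposite strand, a gene with up to 9377 counts in a library, and the use of strand in the counting is not given in the sources used here.

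Nlrc5, the activator of class I genes, was also near the limit, with 3, 2 and 3 counts in GATA6KO and 1, 2 and 1 counts in Control, and was not tested. Among ligands of other receptors, Raet1e, which encodes a ligand of the activating NK receptor NKG2D, measured 12.4, 12.5 and 8.44 CPM in GATA6KO against 13.7, 14.6 and 14.2 CPM in Control. The groups did not overlap, but the gene was not called (log2 fold change -0.35, edgeR adjusted p = 0.235), and 44.5% of its 31-base words are its own. Cd274, which encodes the T cell checkpoint ligand PD-L1, had 43, 61 and 39 counts in GATA6KO and 33, 33 and 47 counts in Control (log2 fold change 0.19, edgeR adjusted p = 0.699). Cd1d1, which presents lipids to natural killer T cells, did not pass the filter, with 24, 7 and 61 counts in GATA6KO and 7, 8 and 10 counts in Control. Replicates 1 and 3 lay above every Control library and replicate 2 did not, and only the fit without GATA6KO replicate 2 called it.

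H2-Ke6 encodes a hydroxysteroid dehydrogenase and no MHC molecule. It measured 18.2, 15.1 and 15.2 CPM in GATA6KO against 21.3, 23.2 and 24.5 CPM in Control (log2 fold change -0.51, SE 0.13, edgeR adjusted p = 0.0494). Of its 31-base words 23.9% are in no other gene, and it shares 2027 bases of gene span with Gm20427 on the same strand. This call was close to the threshold and was lost in 9 of 14 alternatives, among them every one that left out a library except GATA6KO replicate 1 (adjusted p from 0.0669 to 0.201). Without H2-Ke6, 6 of 28 tested genes were lower and 1 higher.

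Around the set, 74 further genes of the same pathway were read from a list grouped by role, of which 66 were tested, 5 were higher and 6 lower in GATA6KO (16.7% called, against 12.4% of all genes tested). The median log2 fold change of the 66 was -0.002. This list was drawn up with earlier results of these data known, so that its shares, here and below, are a description only. Both receptor chains that were called fell. Ifngr1, the ligand-binding chain of the interferon gamma receptor, measured 29.2, 24.8 and 34.0 CPM in GATA6KO against 61.5, 64.5 and 67.2 CPM in Control (log2 fold change -1.13, SE 0.13, edgeR adjusted p = 0.00477), and the call held in all 14 alternatives. Ifnar2, a chain of the type I interferon receptor, was scarce at 0.863 ± 0.0748 CPM in GATA6KO and 2.12 ± 0.409 CPM in Control (log2 fold change -1.29, edgeR adjusted p = 0.0301).

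The other genes of the interferon and NF-kB input were not called, 15 of 17 in all. The share called in this group was 11.8%, against 12.4% of all genes tested. Ifngr2, the partner of Ifngr1, stood at 89.6 ± 15.7 CPM in GATA6KO and 88.5 ± 2.59 CPM in Control (edgeR adjusted p = 0.946). Irf1, an interferon-induced transcription factor, stood at 30.2 ± 7.16 CPM in GATA6KO and 26.5 ± 1.41 CPM in Control (edgeR adjusted p = 0.495). Of 10 promoter factors, 2 were higher and 0 lower (20% called, against 12.4% of all genes tested). These were Nfya, a subunit of the CCAAT-binding complex NF-Y, and Hdac1, a histone deacetylase (log2 fold changes 0.40 and 0.54, edgeR adjusted p = 0.0259 and 0.0284). Rfx5, which binds class I and class II promoters, was not called (log2 fold change 0.13, edgeR adjusted p = 0.421).

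Of 10 genes for chaperones and other functions of the endoplasmic reticulum, 2 fell and 0 rose (20% called, against 12.4% of all genes tested). Hspa5, the chaperone BiP, measured 967.4, 643.4 and 848.5 CPM in GATA6KO against 1954, 2127 and 2214 CPM in Control (log2 fold change -1.36, SE 0.16, edgeR adjusted p = 0.00516), and the call held in all 14 alternatives. Pdia6, a disulfide isomerase, fell by 0.59 on the log2 scale (edgeR adjusted p = 0.0169). Neither is a dedicated subunit of the class I loading complex. Among 9 proteasome and peptidase genes, 11.1% were called, against 12.4% of all genes tested. The called gene was Npepps, a cytosolic aminopeptidase, which was lower (log2 fold change -0.77, edgeR adjusted p = 0.0383). Among 9 tested genes of endosomal processing, 11.1% were also called. The called gene was March8, a ubiquitin ligase that takes class II molecules from the surface, which was higher (log2 fold change 0.37, edgeR adjusted p = 0.0381).

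Of 11 tested ligands of NK and T cell receptors, 2 rose and 1 fell (27.3% called, against 12.4% of all genes tested). Pvr, which encodes CD155, the ligand of the receptors DNAM-1 and TIGIT, measured 66.0, 44.0 and 36.6 CPM in GATA6KO against 134.4, 137.2 and 147.7 CPM in Control (log2 fold change -1.52, SE 0.21, edgeR adjusted p = 0.00871), and the call held in all 14 alternatives. Vtcn1, which encodes the T cell inhibitor B7-H4, measured 5.25, 13.1 and 4.84 CPM in GATA6KO against 1.71, 2.01 and 1.80 CPM in Control (log2 fold change 2.06, SE 0.43, edgeR adjusted p = 0.0282). H60c, an NKG2D ligand, measured 1.54, 0.984 and 1.93 CPM in GATA6KO against 0.570, 0.416 and 0.167 CPM in Control (log2 fold change 1.96, SE 0.50, edgeR adjusted p = 0.0491). In each of these 3 genes the groups did not overlap. Apart from Ifngr1, Hspa5 and Pvr, each called gene of this list was lost without any 1 of the Control libraries (adjusted p from 0.0778 to 0.175). Ifnar2 was also lost without GATA6KO replicate 3 (0.0571), Npepps without GATA6KO replicate 2 or 3 (0.0683 and 0.0689), and H60c without GATA6KO replicate 1 or 3 (0.0524 and 0.103).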

How the data were processed

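RNA of 3 GATA6KO and 3 Control libraries was poly(A)-selected and made into strand-marking libraries, per the labels' protocols. The authors deposited estimated counts per gene in whole numbers, unscaled; Salmon 1.3.0 and mm10 are listed with no stated role, per the submitters' processing notes. Such counts divide reads shared by similar transcripts. How strand was used, the annotation release and the summing to genes: not given in the sources used here. No 2 libraries were identical (at least 23754 genes differed).

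Symbols and coordinates came from GENCODE M21 (mm10); 252 identifiers had no symbol, so a member among them would be missed. Groups came from titles. edgeR 4.0.16 (R 4.3.3) kept genes by filterByExpr defaults (10 counts at the median library size in 3 libraries, 15 in total), scaled by TMM and ran the robust quasi-likelihood test without a block on the counts, adjusted by Benjamini-Hochberg across 14714 genes and called at 0.05. SE is the fold change over the square root of F. CPM per kb used the length of merged exons. Intervals and floors cover counting error or library spread only. The pipeline was tested on simulated counts. Members, pathway list and markers were chosen with earlier results of these data known. The text names every tested member, the called pathway genes, and Irf1, Rfx5, Ifngr1 and Ifngr2; some results that this rule would name are not reported here; neighbours and ratios were chosen after values were seen. Alternatives were RLE and library-total scaling, DESeq2 1.42.0, limma-voom 3.58.1, no filter, at least 1 CPM in 3 libraries of a group, no robust estimation, a replicate block and each library left out.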

Additional observations from a re-analysis of the deposited data

How the results depend on the processing

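Of 14714 genes 1823 were called, and 3238 with DESeq2. With a replicate block, 827 genes were called, of which 2 antigen presentation genes were lower (H2-K1 and H2-Q1) and 1 higher (Tapbp). No label says whether the shared numbers mark pairs. Deviations of same-numbered libraries correlated at -0.01, 0.07 and -0.09, which cannot settle it with 3 libraries per group and the wider spread of GATA6KO. Leaving out 1 library gave 332 (without Control replicate 3) to 4360 (without GATA6KO replicate 1) genes called, 0 to 9 antigen presentation genes lower and 0 to 3 higher. Without Control replicate 1 or 2 there were 425 and 389 genes called. No called direction turned under any alternative run. Gata6 lost its call in 5 of 14 alternatives (highest adjusted p 0.181, without Control replicate 3). The log2 fold change of summed class I heavy chains stayed between -0.70 and -0.46 under other scalings and left-out libraries. Nlrc5, Ciita, Cd74 and Psmb8, with fewer than 10 counts in every library, were fitted only without the filter and were not called there (edgeR adjusted p from 0.499 to 0.769).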
